A study of Mus musculus with 26 samples.

Results

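The 8 genes described here encode the cell's main receptors for double-stranded RNA (dsRNA), the adaptor that several of them signal through, and the enzyme that edits dsRNA: Ddx58, Ifih1, Dhx58, Mavs, Tlr3, Eif2ak2, Zbp1 and Adar. They were taken by gene symbol from both deposited expression tables, and each symbol was found once among the 53465 genes listed in the muscle injury table and once among the 55487 genes listed in the C2C12 table. All 8 passed the filter on low values in both tables. Ifih1 did so in C2C12 cells only through Cas9M3 libraries, and Zbp1 did so in muscle only through days 1, 3 and 5. The genes were chosen by their measured FPKM differences between Cas9M3 and CTRL cells at both stages and between the injury days, so those values are given as a description. Calls of the limma fit are printed beside them, and nothing is read from those calls or their counts.

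Long dsRNA is rare in healthy cells and is a hallmark of viral replication, so vertebrate cells treat it as an alarm. In the cytoplasm it is bound by the RIG-I-like helicases, which pass the signal to MAVS on the outer mitochondrial membrane and so to the transcription factors that switch on type I interferon. In endosomes dsRNA is read by TLR3, the kinase PKR (Eif2ak2) stops translation by phosphorylating eIF2 alpha, and ZBP1 binds left-handed Z-form nucleic acid and can start necroptosis. ADAR, which converts adenosine to inosine in dsRNA, destabilises the cell's own duplexes and keeps these receptors from responding to self RNA. Most of these genes are themselves induced by interferon. METTL3, the gene product lowered in the cell experiment, is the catalytic subunit of the complex that writes N6-methyladenosine (m6A) on mRNA.

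The injury table holds TA muscles of C57BL/6J mice, described as six-week-old males, on days 0, 1, 3, 5 and 10 of cardiotoxin (CTX, a venom peptide that destroys muscle fibres), with 2 libraries for each day. The sources do not settle whether the day 0 muscles were untouched or injected with saline. The C2C12 table holds a mouse myoblast line in growth medium (GM, labelled D0) and after 3 days in differentiation medium with horse serum (DM3, labelled D3), as control cells (CTRL) and as cells carrying a lentiviral dCas9-KRAB repressor, driven by the hUbC promoter and selected with puromycin, with a guide against the Mettl3 promoter (Cas9M3), again with 2 libraries per group. Whether CTRL carried the vector, and whether the Cas9M3 line was 1 clone, were not given in the sources used here, and another 8 libraries of overexpressing cells were not analysed here.

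Several features of the libraries bear on every result that follows. Values were FPKM (fragments per kilobase of exon), scaled separately in the 2 tables, so levels were compared only within a table. Steps in the low values gave about 14170000 to 18820000 counted reads per library in the injury table and 14230000 to 29570000 in the C2C12 table, and 1 read on a 1 kb transcript was worth 0.0315 to 0.104 FPKM in C2C12 cells. The scale did not follow the counted reads alone: such a read was worth 0.0507 FPKM in day 3 replicate 1, at 14330000 reads. It was worth 0.0698 in day 1 replicate 1, at 14850000 reads. Scaling anew by the median ratio over genes left the median change over all genes nearly as it was. The values were thus already close to that scaling, and a median near 0 over all genes is largely set by it. CTRL GM replicate 2 stood apart: it was the shallowest C2C12 library, a ribosomal RNA gene (Gm23935) made up 37.9% of its summed FPKM, and its correlation with its mate was 0.8625. Xist, a transcript of the inactive X chromosome, was above 1 FPKM in 5 injury libraries, namely both of day 0, both of day 10 and replicate 2 of day 3, and was at most 0.152 FPKM in the other 5, although all mice were described as male. The Y-linked gene Ddx3y averaged 0.0967 FPKM on day 0 and 0.0387 on day 10, against 10.9 on day 1 and 8.45 on day 5. Eif2s3y, also Y-linked, averaged 0.0733 and 0.0581 against 11.1 and 10.9. By these genes the muscles of days 0 and 10 looked female and those of days 1 and 5 male. Day and Xist status, and with it apparent sex, therefore cannot be told apart for days 1 and 5 against day 0. Mettl3 measured 4.70 and 5.65 FPKM in CTRL GM, 4.68 and 5.15 in CTRL DM3, 0.331 and 0.118 in Cas9M3 GM and 0.148 and 0.0805 in Cas9M3 DM3, so its level followed the labels in all 8 C2C12 libraries.

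Interferon-induced genes often carry short recognition sequences near their start sites, and because most of the 8 genes moved together, their promoters were searched for the letters of 2 of them. RefSeq promoter windows (GRCm38.p6, 250 bases before to 50 after the start) were at hand for 6 of the 8 genes, with 3 windows for Adar. Both strands were searched for GAAA, any 2 bases and GAAA again, the core of the interferon-stimulated response element (ISRE) bound by interferon-activated transcription factors, and for TTCNNNGAA, the gamma-activated site (GAS). The ISRE core was present once in each of Ifih1, Ddx58 and Eif2ak2, and it was found in 3.44% of the 32851 promoters of the same length. The stretches below run 5′ to 3′ on the gene's strand, and the capitals mark the match, which on Ddx58 lies on the opposite strand.
Ifih1 (chr2:62646206-62646235, minus strand, first matched base at +33): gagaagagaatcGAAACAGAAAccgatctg
Ddx58 (chr4:40239804-40239833, minus strand, first matched base at +3): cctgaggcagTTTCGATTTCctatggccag
Eif2ak2 (chr17:78882535-78882564, minus strand, first matched base at +19): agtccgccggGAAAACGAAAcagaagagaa

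The GAS letters occurred in 1 of the 3 Adar windows and, further upstream, in Eif2ak2, against 8.3% of all promoters. These 2 stretches are shown because Adar held no ISRE core and Eif2ak2 held both motifs.
Adar (chr3:89730729-89730758, plus strand, first matched base at +23): ggggaagccttTTCAAGGAAacgaaagtga
Eif2ak2 (chr17:78882732-78882761, minus strand, first matched base at -178): cctgcagagctTTCCCAGAAtggaagccag
Neither motif was found in the Mavs or Tlr3 windows. A match describes letters only.

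In Cas9M3 cells at DM3 the dsRNA receptors were higher than in CTRL cells, from about 2.26-fold for Adar to 22.1-fold for Ifih1 in ratio of mean FPKM, while Mavs differed least, at 1.28-fold. At this stage the 2 Cas9M3 libraries lay above both CTRL libraries for all 8 genes. A separation of this kind, upward, was seen in 29.3% of all 13824 genes tested. By the limma fit 2 of the 8, Ifih1 and Dhx58, were past an adjusted p of 0.05, where 1.29% of all genes were called higher in Cas9M3 and 0.687% lower. Ifih1 entered the fit only through the Cas9M3 libraries, where it was high. A median log2 fold change of 1.61 over the 8 stood beside one of -0.05 over all genes tested. With any 1 of the 4 DM3 libraries left out, limma called 0 of the 8 and 0 of all genes tested, with 4 to 6 of the 8 and 1176 to 1415 of all genes at an unadjusted p under 0.05. The 2 groups also differed in the state of the cells: the summed FPKM of 5 myotube markers was 322 to 359 in CTRL DM3 and 7.79 to 10.3 in Cas9M3 DM3, and that of 6 muscle fibre markers was 426 to 467 against 10.2 to 13.5. The part of that difference in the values of the 8 genes was not tested.

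**Figure D1:**
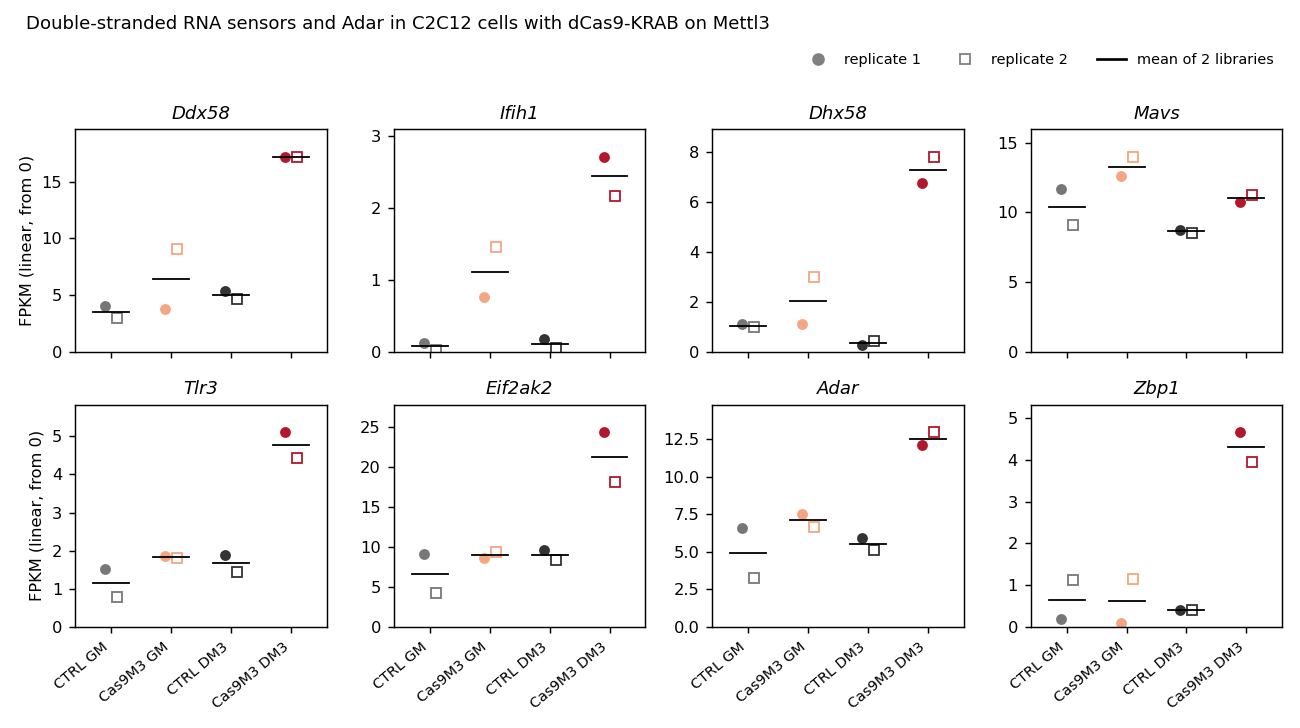
FPKM (linear axis from 0) of each of the 8 genes in the 8 C2C12 libraries, by group (CTRL GM, Cas9M3 GM, CTRL DM3, Cas9M3 DM3), with 1 point per library and a bar at the mean of the 2. Both Cas9M3 DM3 points sit above both CTRL DM3 points in every panel, and Mavs shows the narrowest gap, 10.8 and 11.3 against 8.73 and 8.53.

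Ifih1 encodes MDA5, the helicase that assembles along long dsRNA. Its FPKM was 0.127 and 0.0254 in CTRL GM, 0.170 and 0.0515 in CTRL DM3, 0.764 and 1.46 in Cas9M3 GM, and 2.71 and 2.18 in Cas9M3 DM3. It had the lowest mean of the 8 in CTRL cells at both stages, at 33 and 2 reads in GM and 38 and 7 in DM3, and it was well above that in Cas9M3 cells at both stages, at 197 and 219 reads in GM and 617 and 261 in DM3. The log2 fold change of Cas9M3 over CTRL was 2.78 ± 0.54 (SE) in GM and 3.65 ± 0.54 in DM3, on the log2(FPKM + 0.1) scale, which understates the change of so low a gene.

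Ddx58 encodes RIG-I, which recognises short dsRNA with a 5′ triphosphate end. Its FPKM was 3.99 and 2.97 in CTRL GM, 5.33 and 4.64 in CTRL DM3, 3.72 and 9.07 in Cas9M3 GM, and 17.2 in each Cas9M3 DM3 library. In GM the groups overlapped, since Cas9M3 replicate 1 fell within the CTRL range and only replicate 2 lay above it, and in DM3 they did not. Cas9M3 exceeded CTRL by a log2 fold change of 0.74 ± 0.41 in GM and 1.77 ± 0.41 in DM3.

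Dhx58 encodes LGP2, a helicase without the signalling domains of the other two that modulates their response. Its FPKM was 1.10 and 0.981 in CTRL GM, 0.267 and 0.422 in CTRL DM3, 1.10 and 2.98 in Cas9M3 GM, and 6.75 and 7.78 in Cas9M3 DM3. The DM3 gap was thus made from both sides, with CTRL lower and Cas9M3 higher than in GM. The CTRL DM3 values rest on 24 and 23 reads and the Cas9M3 DM3 values on 616 and 374. The log2 fold change was 0.76 ± 0.47 in GM and 4.07 ± 0.47 in DM3, the larger of which was the highest among the 8 genes on this scale.

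Mavs, the adaptor shared by RIG-I and MDA5, is not known as a strongly interferon-induced gene. Its FPKM was 11.7 and 9.10 in CTRL GM, 8.73 and 8.53 in CTRL DM3, 12.6 and 14.0 in Cas9M3 GM, and 10.8 and 11.3 in Cas9M3 DM3. Cas9M3 lay above CTRL at both stages, by a log2 fold change of 0.36 ± 0.18 in GM and 0.35 ± 0.18 in DM3.

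Tlr3, the endosomal receptor that signals through TRIF (Ticam1) and not through MAVS, measured 1.51 and 0.776 FPKM in CTRL GM, 1.89 and 1.45 in CTRL DM3, 1.86 and 1.82 in Cas9M3 GM, and 5.10 and 4.42 in Cas9M3 DM3. The 3 other groups lay between 0.776 and 1.89 FPKM, and the Cas9M3 DM3 pair stood clear of them. On the log2 scale the fold change was 0.71 ± 0.34 in GM and 1.46 ± 0.34 in DM3. With the replicate number as a block, which the libraries' correlations allow, Tlr3 was also called in DM3 (3 of 8 genes, where 2.31% of all genes were called higher under the block).

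Eif2ak2, the dsRNA-activated kinase PKR, was the most abundant of the 8 in Cas9M3 DM3. Its FPKM was 9.12 and 4.23 in CTRL GM, 9.57 and 8.37 in CTRL DM3, 8.59 and 9.36 in Cas9M3 GM, and 24.3 and 18.1 in Cas9M3 DM3. In GM the groups overlapped, and the low value was that of CTRL GM replicate 2, the library that stood apart. Its log2 fold change came to 0.52 ± 0.36 in GM and 1.22 ± 0.36 in DM3.

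Zbp1, the Z-nucleic acid receptor, was the most variable. Its FPKM was 0.196 and 1.12 in CTRL GM, 0.413 and 0.409 in CTRL DM3, 0.0898 and 1.14 in Cas9M3 GM, and 4.66 and 3.95 in Cas9M3 DM3. In both GM groups replicate 2 was far above replicate 1, by up to 12.7-fold in Cas9M3, so the groups overlapped, with a log2 fold change of -0.31 ± 0.99. In DM3 the replicates lay close together and the log2 fold change was 3.10 ± 0.99, an error that is the same as in GM because the fit estimates 1 spread per gene over all 8 libraries.

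Adar measured 6.61 and 3.24 FPKM in CTRL GM, 5.93 and 5.14 in CTRL DM3, 7.51 and 6.67 in Cas9M3 GM, and 12.1 and 12.9 in Cas9M3 DM3. Both Cas9M3 groups lay above their CTRL groups, narrowly in GM and by about 2.26-fold in DM3. The log2 fold change was 0.60 ± 0.33 in GM and 1.16 ± 0.33 in DM3, so the editor of dsRNA was raised less than 6 of the 7 other genes in DM3 by this point estimate, Mavs being the exception, although its standard error overlaps those of Eif2ak2, Tlr3 and Ddx58. Exons of Adar share 16.8% of their length with Chrnb2 on the other strand, and the strand setting of the counting was not stated, so reads of the 2 genes may be mixed.

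In GM none of the 8 genes was called, and neither was any of the 13824 genes tested (0%), Mettl3 included, by limma. At an unadjusted p under 0.05 there were 1244 genes, 1 of them among the 8. The 2 Cas9M3 libraries lay above both CTRL libraries for 5 of the 8 in GM, where 15.6% of all genes did, and the exceptions were Ddx58, Eif2ak2 and Zbp1. For Dhx58, counted among the 5, this was nearly a tie. Replicate 1 measured 1.104 FPKM in Cas9M3 and 1.096 in CTRL, on 114 reads each. The median log2 fold change of the 8 in GM was 0.65, against -0.01 over all genes. Single libraries decided the GM values. With 1 GM library left out in turn the log2 fold change was 0.10 to 1.10 for Adar, 0.27 to 1.15 for Tlr3, 0.11 to 1.37 for Ddx58, 0.08 to 1.44 for Dhx58, -0.024 to 1.06 for Eif2ak2 and -1.66 to 1.05 for Zbp1. The lower end was the value without CTRL GM replicate 2 for Adar, Tlr3 and Eif2ak2 and without Cas9M3 GM replicate 2 for Ddx58, Dhx58 and Zbp1. Ifih1 stayed between 2.35 and 3.21.

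The knockdown difference was numerically larger in DM3 than in GM for 7 of the 8 genes, and the extra log2 change was 3.41 ± 1.41 for Zbp1, 3.31 ± 0.66 for Dhx58, 1.03 ± 0.58 for Ddx58, 0.86 ± 0.77 for Ifih1, 0.75 ± 0.48 for Tlr3, 0.70 ± 0.52 for Eif2ak2 and 0.56 ± 0.47 for Adar. Mavs showed none, at -0.01 ± 0.26. No gene of the 8 and none of all genes tested (0%) passed the interaction test by limma, with 1198 genes, 2 of them among the 8, at an unadjusted p under 0.05.

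**Figure D2:**
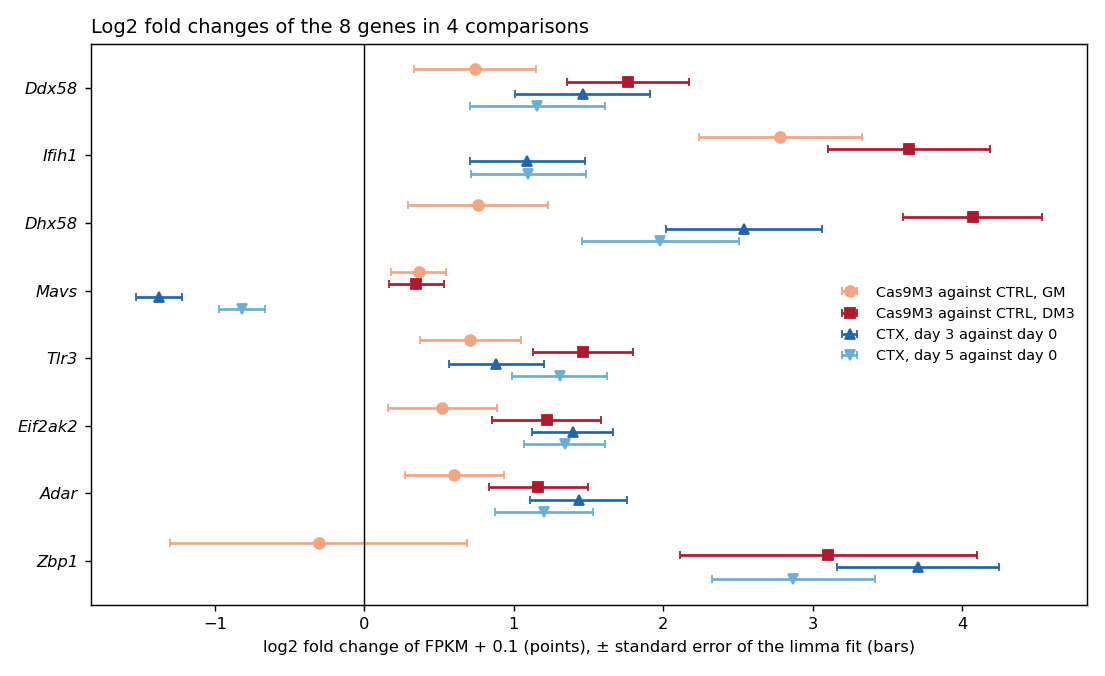
Log2 fold change of FPKM + 0.1 (x axis) of the 8 genes (y axis) in 4 comparisons, Cas9M3 against CTRL in GM and in DM3 and injury days 3 and 5 against day 0, with points at the estimate of the limma fit and bars at ± 1 standard error. Mavs lies slightly above 0 in both knockdown comparisons (0.36 in GM and 0.35 in DM3) and below 0 on both injury days. The other 7 lie above 0 in all 4 except Zbp1 in GM (-0.31).

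The change from GM to DM3 within a genotype rests on the same 8 libraries whose values chose the genes, so it too is a description. In CTRL cells limma called none of the 8 genes, where 1.14% of all genes were called, and at an unadjusted p under 0.05 there were 1 of the 8 and 2520 of all genes. The widest difference was that of Dhx58, whose DM3 libraries were lower than both GM libraries, with a log2 fold change of -1.38 ± 0.47. It was 0.57 for Tlr3, 0.52 for Ddx58, 0.52 for Eif2ak2, 0.26 for Ifih1, 0.25 for Adar, -0.23 for Zbp1 and -0.25 for Mavs. The signs for Ifih1, Adar, Eif2ak2 and Zbp1 turned when CTRL GM replicate 2 was left out, to -0.17, -0.25, -0.027 and 0.79. Without CTRL GM replicate 1 instead, which leaves the library that stood apart as the only CTRL GM library, 3 of the 8 (Eif2ak2, Adar and Tlr3) were called as higher in DM3, together with 3684 of all genes, 1767 of them higher.

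In Cas9M3 cells both DM3 libraries lay above both GM libraries for all but Mavs (23.9% of all genes did so, and 24.1% lay below). By limma none of the 8 was called, where 0.0289% of all genes were, and at an unadjusted p under 0.05 there were 6 of the 8 and 1748 of all genes. The log2 fold change was 3.18 for Zbp1, 1.93 for Dhx58, 1.54 for Ddx58, 1.32 for Tlr3, 1.22 for Eif2ak2, 1.12 for Ifih1 and 0.81 for Adar. For Mavs it was -0.27, and both DM3 libraries lay below both GM libraries. With CTRL GM replicate 2 left out of the shared fit, Tlr3 and Eif2ak2 were called, and the calls over all genes went from 4 to 494.

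The order of levels differed between the groups. In CTRL DM3 the mean FPKM was 8.97 for Eif2ak2 and 8.63 for Mavs, which overlapped, then 5.54 for Adar and 4.98 for Ddx58, which overlapped as well, with Tlr3 (1.67), Zbp1 (0.411), Dhx58 (0.345) and Ifih1 (0.111) below them. In Cas9M3 DM3 Mavs had moved from the second to the fourth place, behind Eif2ak2 (21.2), Ddx58 (17.2) and Adar (12.5), at 11.0. It was followed by Dhx58 (7.27), by Tlr3 (4.76) and Zbp1 (4.31), which overlapped, and by Ifih1 (2.44), which stayed lowest.

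After CTX injury 7 of the 8 genes were higher on day 3 than on day 0 in every library pair, and Mavs was lower. Zbp1 showed the widest change, 16.8-fold in ratio of mean FPKM, followed by Dhx58 at 6.03-fold. By limma 6 were called higher, Mavs was called lower and Tlr3 was not called, in a comparison where 48.8% of all 16753 genes tested were called (24.5% higher and 24.3% lower), and both day 3 libraries were above both day 0 libraries for 38.9% of all genes and below them for 39.1%. The median log2 fold change of the 8 was 1.41, against 0.01 over all genes. The cell make-up of the muscle moved at the same time: the summed FPKM of 8 macrophage markers was 19.3 to 36.9 on day 0 and 535 to 563 on day 3, that of 7 T and NK cell markers 0.211 to 1.03 and 7.51 to 8.84, and that of 6 muscle fibre markers 5.14e+04 to 5.79e+04 and 1.18e+04 to 1.54e+04. All 8 macrophage markers were called higher and all 6 muscle fibre markers lower on day 3. In whole muscle, fewer cells of a type and less RNA per cell cannot be told apart, and the part of these shifts in the values of the 8 genes was not tested.

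**Figure D3:**
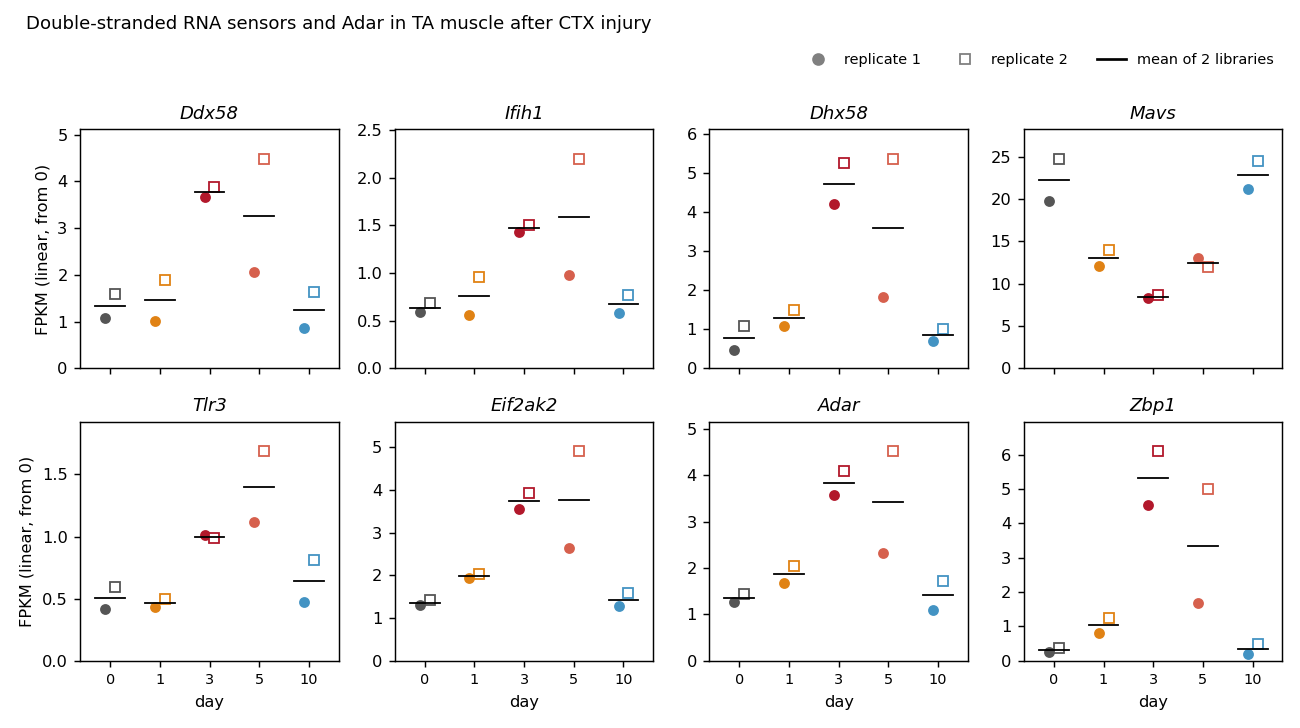
FPKM (linear axis from 0) of each of the 8 genes in the 10 TA muscle libraries, by day after CTX (0, 1, 3, 5 and 10), with 1 point per library and a bar at the mean of the 2. In 7 panels the mean peaks on day 3 or 5 and the day 10 points overlap those of day 0, with wide gaps between the day 5 replicates, and the Mavs panel is lowest on day 3, at 8.32 and 8.63 against 19.8 and 24.7 on day 0.

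The RIG-I-like helicases followed one course at different heights. Ddx58 measured 1.07 and 1.59 FPKM on day 0, 1.02 and 1.89 on day 1, 3.67 and 3.88 on day 3, 2.05 and 4.47 on day 5, with 0.869 and 1.63 on day 10. Days 0, 1 and 10 overlapped, day 3 was clear of them, and the day 5 replicates lay on either side of it. Its log2 fold change against day 0 was 1.46 ± 0.45 on day 3 and 1.16 ± 0.45 on day 5.

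Dhx58 measured 0.466 and 1.10 FPKM on day 0, 1.09 and 1.49 on day 1, 4.20 and 5.24 on day 3, 1.84 and 5.35 on day 5, with 0.699 and 1.01 on day 10. Day 3 and day 5 were each above day 0 in both libraries, by a log2 fold change of 2.54 ± 0.52 and 1.98 ± 0.52. The day 0 values rest on 19 and 48 reads.

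Ifih1 had the smallest change of the 3 helicases, at 0.590 and 0.688 FPKM on day 0, 0.556 and 0.960 on day 1, 1.43 and 1.51 on day 3, 0.985 and 2.19 on day 5, with 0.580 and 0.766 on day 10. Its log2 fold change was 1.09 ± 0.39 on day 3 and 1.10 ± 0.39 on day 5, and it was past the threshold on day 3 and not on day 5.

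Mavs ran the other way. It measured 19.8 and 24.7 FPKM on day 0, 12.1 and 14.0 on day 1, 8.32 and 8.63 on day 3, 12.99 and 11.98 on day 5, with 21.2 and 24.5 on day 10. The days 1, 3 and 5 did not overlap day 0, and day 10 did. It was the one gene of the 8 called on day 1, where 6% of all genes were called (3.53% higher and 2.47% lower), with a log2 fold change of -0.76 ± 0.15, and it was also called on day 3 (-1.37 ± 0.15) and day 5 (-0.82 ± 0.15). On every day it was nonetheless the most abundant of the 8, and its margin over the next gene was narrowest on day 3, at a mean of 8.47 FPKM against 5.31 for Zbp1.

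Tlr3 measured 0.416 and 0.590 FPKM on day 0, 0.429 and 0.497 on day 1, 1.01 and 0.987 on day 3, 1.12 and 1.68 on day 5, with 0.471 and 0.811 on day 10. Both day 5 libraries lay above both day 3 libraries, whereas for the other 6 genes that were high on these days the day 5 replicates lay on either side of the day 3 pair or below part of it. Its log2 fold change against day 0 was 0.88 ± 0.32 on day 3, not called, and 1.31 ± 0.32 on day 5, called, although the 2 days were not tested against each other.

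Eif2ak2 measured 1.30 and 1.42 FPKM on day 0, 1.93 and 2.04 on day 1, 3.55 and 3.93 on day 3, 2.64 and 4.90 on day 5, with 1.28 and 1.58 on day 10. It already lay above day 0 on day 1 in both libraries, at a log2 fold change of 0.51 that was not called, and it stood at 1.39 ± 0.27 on day 3 and 1.34 on day 5.

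Zbp1 measured 0.250 and 0.382 FPKM on day 0, 0.811 and 1.25 on day 1, 4.52 and 6.09 on day 3, 1.67 and 4.99 on day 5, with 0.185 and 0.491 on day 10. It went from the lowest of the 8 on day 0 to second after Mavs on day 3, from 11 and 18 reads to 315 and 435. The log2 fold change was 1.43 ± 0.54 on day 1, not called, 3.70 ± 0.54 on day 3 and 2.87 on day 5.

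Adar measured 1.27 and 1.45 FPKM on day 0, 1.67 and 2.05 on day 1, 3.58 and 4.09 on day 3, 2.33 and 4.52 on day 5, with 1.10 and 1.72 on day 10. The editor thus moved with the receptors in muscle, at a log2 fold change of 1.43 ± 0.33 on day 3, close to Eif2ak2 and Ddx58, and 1.20 on day 5.

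On day 5 the test called 6 of the 8 genes, Ddx58 and Ifih1 being left out, where 25.5% of all genes were called (12.9% higher and 12.5% lower). Without day 0 replicate 1 the count was 0 of 8, and 24 of all genes in place of 4267. Without day 5 replicate 2 it was 0 of 8, and 19 of all genes. By day 10 none of the 8 was called against day 0 by limma, where 0.00597% of all genes were, none had an unadjusted p under 0.05 against 1697 of all genes, and the log2 fold changes lay between -0.12 and 0.27. From day 3 to day 10 the test called 6 of the 8, and 37.9% of all genes (19.1% higher and 18.8% lower): Zbp1 (-3.70), Dhx58 (-2.34), Ddx58 (-1.58), Adar (-1.41) and Eif2ak2 (-1.34) lower and Mavs (1.42) higher, while Ifih1 (-1.03) and Tlr3 (-0.61) were not called. From day 1 to day 3 it called Zbp1 (2.27), Dhx58 (1.80) and Eif2ak2 (0.88) higher and Mavs (-0.61) lower, where 31.1% of all genes were called (14.5% higher and 16.6% lower).

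Comparisons among libraries of 1 Xist status gave nearly the same sizes for the genes named in this paragraph, with fewer calls. The values of the others of the 8 are not reported here. Between the Xist-expressing libraries of day 3 and day 0, the log2 fold change was 3.91 for Zbp1, 2.70 for Dhx58, 1.50 for Ddx58, 1.47 for Eif2ak2, 0.87 for Tlr3 and -1.35 for Mavs, and 3 of the 8 genes were called, beside 3089 of all genes. Between the day 3 and day 1 libraries without Xist it was 2.06 for Zbp1, 1.34 for Ddx58, 0.98 for Tlr3 and -0.64 for Mavs, with 0 of 8 and 0 of all genes called by limma and 1 of 8 and 4920 of all genes at an unadjusted p under 0.05. Between the Xist-expressing libraries of day 10 and day 3 it was -2.50 for Dhx58, -1.62 for Ddx58, -1.41 for Eif2ak2 and 1.39 for Mavs. Each of these leaves 1 library of day 3, which was assumed to vary like the other groups. Days 1 and 5 against day 0 have no such comparison.

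Among the 8 genes the replicates of a day also differed mostly in one direction. Replicate 2 was above replicate 1 for all 8 genes on days 0, 1 and 10, by 1.09 to 2.36-fold on day 0, 1.06 to 1.85-fold on day 1 and 1.16 to 2.65-fold on day 10. On day 5 it was above for 7 of the 8, by up to 2.99-fold, the exception being Mavs. On day 3 it was above for 7 of the 8 as well, at ratios of 0.976 to 1.35, the exception being Tlr3. The share over all genes was not determined, so these counts do not show a trait of the 8 genes.

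The pathway around the receptors was read from 7 lists of 114 genes in all, none of them among the 8, and likewise chosen with earlier results known. In Cas9M3 against CTRL at DM3, 9 of the 98 listed genes tested were called, all higher, where 1.98% of all genes were called: 7 of 24 in the list of type I interferon and its induced targets and 2 of 13 in the list of cytosolic DNA sensing. The interferon list had a median log2 fold change of 3.37, or 3.77 with the 2 genes listed at 0 in CTRL put at the bound that 3 reads allow, and the lists of RIG-I-like signalling (0 of 19 called, median 0.28), TLR3 signalling (0 of 8, 0.18), PKR and eIF2 alpha signalling (0 of 12, -0.25), ZBP1 and necroptosis (0 of 8, 0.24) and other dsRNA-binding and editing proteins (0 of 14, -0.27) gave no call by limma. At an unadjusted p under 0.05 there were 38 of the 98. With the replicate number as a block the count was 17 of 98, 13 of them in the interferon list, 2 in DNA sensing and 2 in RIG-I-like signalling, where 3.65% of all genes were called.

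Among the named genes, Ifit1, which binds foreign RNA 5′ ends, averaged 105.3 FPKM in Cas9M3 DM3 and 1.00 in CTRL DM3 (log2 fold change 6.66 ± 1.09). Usp18, which removes ISG15 and dampens interferon signalling, averaged 12.3 against 0.0692 FPKM (6.20 ± 0.96). In the DNA-sensing list Ifi203 averaged 14.3 against 2.40 FPKM (2.51 ± 0.25) and Mndal 3.87 against 0.552 (2.61 ± 0.41), both members of the interferon-inducible Ifi200 family.

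The transcription factors downstream of MAVS differed from each other. Irf3, present constitutively, measured 7.43 and 8.31 FPKM in CTRL DM3 and 8.26 and 9.71 in Cas9M3 DM3, and the groups overlapped. Irf7, the interferon-induced partner, measured 0.493 and 0.398 against 9.27 and 10.8 FPKM (4.22 ± 0.90, not called without the block and called with it). Ifnb1, the interferon beta gene itself, was listed at 0 in 7 of the 8 C2C12 libraries and at 0.0908 FPKM in Cas9M3 DM3 replicate 2, too low to test. Isg15, an induced ubiquitin-like modifier, measured 5.55 and 6.32 FPKM in CTRL DM3 and 64.1 and 92.0 in Cas9M3 DM3, and was not called with or without the block.

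The direct partners of the receptors showed gaps of different size. Trim25, a ubiquitin ligase of RIG-I, measured 5.40 and 4.31 FPKM in CTRL DM3 and 11.9 and 10.0 in Cas9M3 DM3 (1.16 ± 0.25, not called). Ticam1, the adaptor of TLR3, measured 9.82 and 8.19 against 10.8 and 12.7 FPKM. Ripk3, the kinase that ZBP1 recruits, measured 0.255 and 0.288 against 0.939 and 0.861 FPKM (1.43 ± 0.31). Its gap in GM was alike, at means of 0.677 FPKM in CTRL and 2.20 in Cas9M3. Mlkl, which executes necroptosis, measured 11.6 and 11.8 against 14.2 and 12.2 FPKM in DM3. Neither gene was called. Adarb1, the second editing enzyme, measured 2.44 and 2.14 against 3.07 and 2.57 FPKM, and Prkra, the protein activator of PKR, 13.8 and 16.5 against 15.3 and 15.6.

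The cytosolic DNA receptor and its adaptor were read as well. Mb21d1 (cGAS) measured 1.24 and 0.845 FPKM in CTRL DM3 and 1.12 and 0.841 in Cas9M3 DM3, with the groups overlapping. Tmem173 (STING) measured 3.13 and 3.09 against 6.20 and 5.94 FPKM, and was not called. In GM Mb21d1 averaged 2.25 FPKM in Cas9M3 and 1.04 in CTRL (log2 fold change 1.02 ± 0.33). Tmem173 averaged 11.0 and 6.53 FPKM there (0.83 ± 0.31). For both genes the GM groups did not overlap, and neither was called, like every gene tested in GM.

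In GM the listed genes gave 0 of 98 calls by limma and 17 at an unadjusted p under 0.05, with a median of 1.24 for the interferon list. The 2 Cas9M3 GM libraries were unlike in these genes: Irf7 measured 0.461 and 4.43 FPKM and Isg15 4.37 and 27.7, with replicate 2 the higher, while the myotube marker sum was 29.4 and 1.45, with replicate 1 the higher. The same library, Cas9M3 GM replicate 2, held the higher value of its pair for 6 of the 8 genes described here, Adar and Tlr3 being the exceptions. From GM to DM3, 1 of the 98 was called in CTRL (Rnaseh2a, a subunit of RNase H2, at -1.48), and 0 of 98 in Cas9M3 by limma, with 31 at an unadjusted p under 0.05. The test of the difference between stages called 0 of 98, with 17 at an unadjusted p under 0.05.

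**Figure D4:**
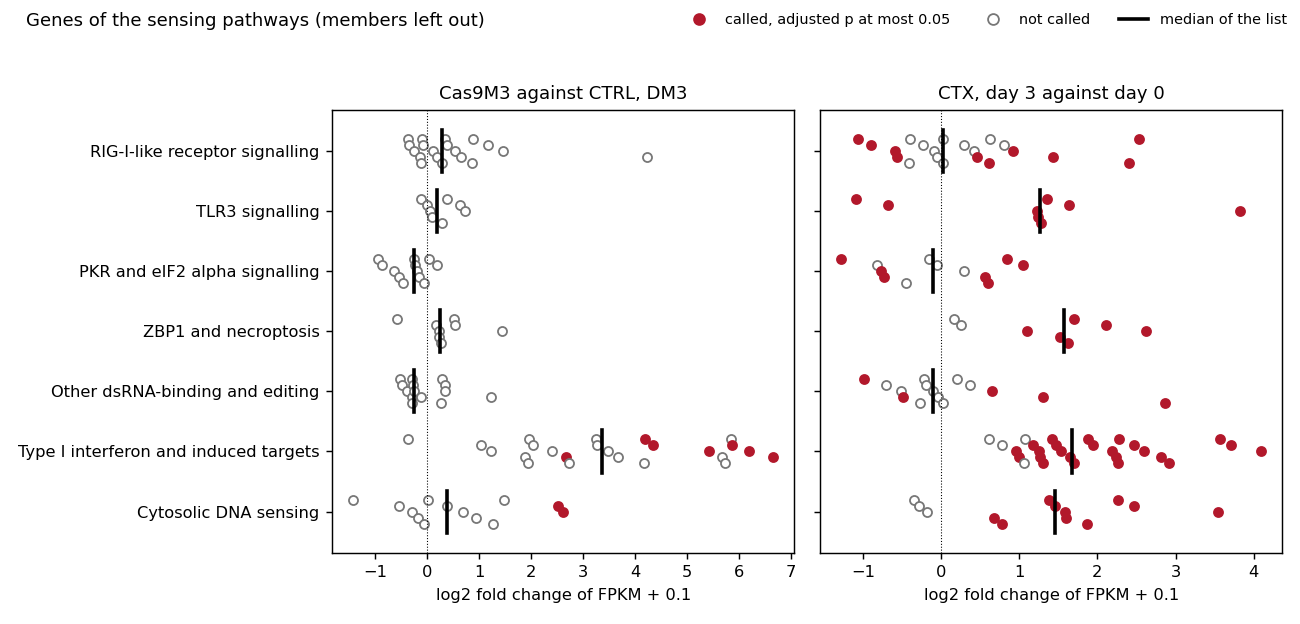
Log2 fold change of FPKM + 0.1 (x axis) of the genes of the 7 pathway lists (y axis), without the 8 genes themselves, in Cas9M3 against CTRL at DM3 and on injury day 3 against day 0, with filled points for genes past an adjusted p of 0.05, open points for the others and a bar at each list's median. The type I interferon list stands furthest right in Cas9M3 against CTRL at DM3 (median 3.37) and on injury day 3 (median 1.68).

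On injury day 3, 59 of the 105 listed genes tested were called higher and 11 lower, beside 24.5% and 24.3% of all genes. The interferon list gave 24 of 28 higher and 0 lower (median 1.68), DNA sensing 10 of 13 and 0 (1.45), ZBP1 and necroptosis 6 of 8 and 0 (1.57), TLR3 signalling 6 of 8 and 2 (1.26), RIG-I-like signalling 6 of 21 and 4 (0.03), PKR and eIF2 alpha signalling 4 of 12 and 3 (-0.11), and other dsRNA-binding proteins 3 of 15 and 2 (-0.10). On day 5, 31 were called higher and 4 lower, and on day 10 none was called by limma, with 8 at an unadjusted p under 0.05.

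In the interferon list Mx1, an antiviral GTPase, averaged 3.57 FPKM on day 3 and 0.116 on day 0 (log2 fold change 4.10), and Oas3, a dsRNA-activated oligoadenylate synthetase, 0.0708 on day 0 with a log2 fold change of 3.72. Among the partners of TLR3, Unc93b1, the chaperone that brings endosomal TLRs to their compartment, averaged 55.3 against 3.87 FPKM (3.83), while the kinase Map3k7 (-0.68) and its adaptor Tab2 (-1.09) fell.

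Around the RIG-I-like receptors Ikbke (2.53), a kinase that activates IRF3, and Irf7 (2.41), at 1.91 and 3.87 FPKM on day 0 and 11.9 and 18.6 on day 3, rose with Trim25 (1.44). Nlrx1 (-1.06) and Mul1 (-0.90), both mitochondrial proteins like Mavs and both described as restraining its signalling, fell. Irf3 was not called, at 7.93 and 8.27 FPKM on day 0 and 9.95 and 11.9 on day 3. Ifnb1 was listed at 0 in 9 of the 10 muscle libraries and at 0.0659 FPKM in day 3 replicate 2.

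Of the genes that act beside PKR, Eif2ak3 (1.04), another eIF2 alpha kinase, and Prkra (0.84) rose on day 3, and Ddit3 (-1.28) and Atf4 (-0.77), transcription factors of the response to eIF2 alpha phosphorylation, fell. In the necroptosis list Gsdmd (2.11), Ripk3 (1.70) and Mlkl (1.63) rose, Ripk3 from 0.876 and 1.27 FPKM to 4.38 and 3.06. Among the dsRNA-binding proteins Zc3hav1 (1.30), the antiviral zinc-finger protein ZAP, rose, Stau2 (-0.98) and Tarbp2 (-0.49) fell, and Adarb1, the other editing enzyme, was not called (-0.22), at 1.30 FPKM in both day 0 libraries and 1.19 and 1.03 on day 3. The DNA receptors and their adaptor rose too, Ifi204 by 3.55, Aim2 by 2.47, Tmem173 by 2.26 and Mb21d1 by 1.60.

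**Figure D5:**
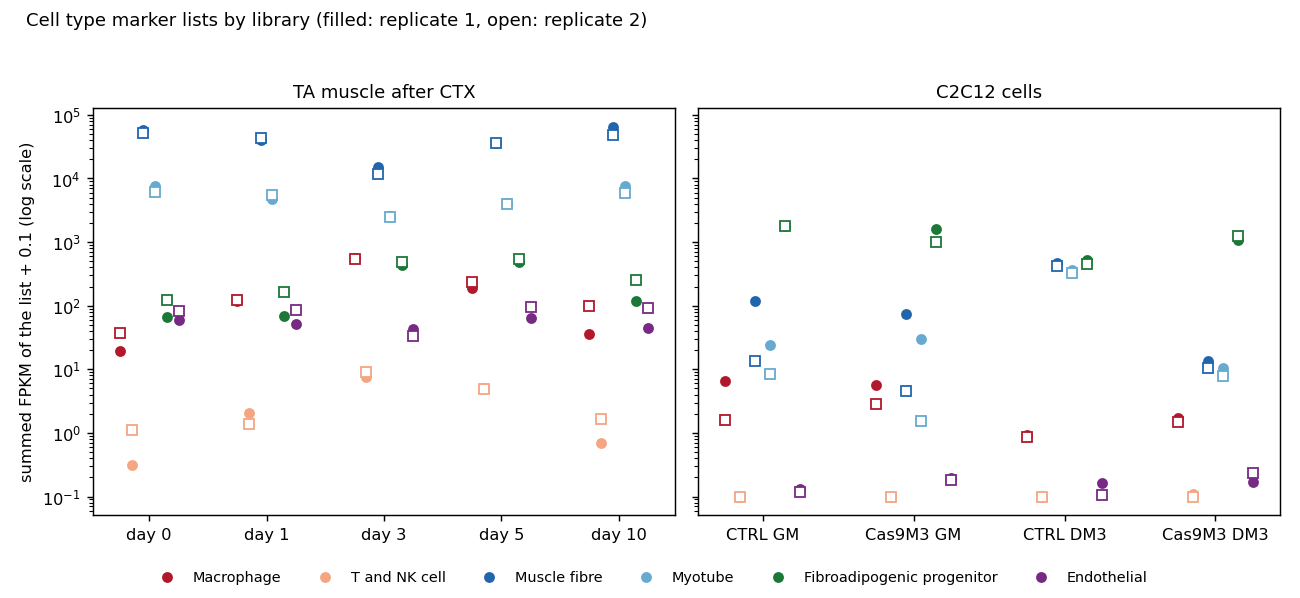
Summed FPKM + 0.1 of cell type marker lists (y axis, log scale) in each library of TA muscle by day after CTX and of C2C12 cells by group, filled for replicate 1 and open for replicate 2. Macrophage markers rise from 19.3 to 36.9 on day 0 to 535 to 563 on day 3 in muscle, and in C2C12 cells the myotube sum is 322 to 359 in CTRL DM3 and 7.79 to 10.3 in Cas9M3 DM3.

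The marker lists bear on the 2 tables differently. In the C2C12 libraries the macrophage genes Adgre1, C1qa, C1qb and Itgam were at 0 in all 8 libraries, the macrophage sum was at most 6.54 FPKM, and the T and NK cell sum was at most 0.00986, while the 8 genes themselves were measured in every group. In muscle the macrophage sum was highest on day 3 and lower on day 5 (188 to 239 FPKM), as were the means of Ddx58, Dhx58, Adar and Zbp1. The sum of 5 fibroadipogenic progenitor markers was 65.9 to 125 FPKM on day 0, 440 to 484 on day 3 and 484 to 550 on day 5, and the mean of Tlr3 was likewise highest on day 5. Other lists also had their highest mean sum on day 5. Dendritic cell markers were at 2.25 to 3.37 FPKM on day 3 and 3.12 to 3.24 on day 5. Myoblast and satellite cell markers were at 828 to 996 and 1.26e+03 to 1.31e+03, and endothelial markers at 33.6 to 43.4 and 63.3 to 93.8. The course of Tlr3 thus does not single out 1 list. The means of Ifih1 (1.59 on day 5, 1.47 on day 3) and Eif2ak2 (3.77 and 3.74) differed little between these days. For all of these genes but Tlr3 the day 5 libraries overlapped the range of the day 3 pair, so the order of the days is not settled. Mavs moved with the muscle fibre sum, which was 4.03e+04 to 4.36e+04 on day 1 and 3.64e+04 to 3.66e+04 on day 5. The part of these lists in the values was not tested.

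The courses of the 8 genes were compared by Pearson's r of log2(FPKM + 0.1) as a description over libraries that share depth and day. Over the 10 muscle libraries the 7 genes other than Mavs correlated with each other at 0.782 to 0.986, and Mavs with them at -0.886 to -0.48. Over the 8 C2C12 libraries the 7 correlated at 0.498 to 0.985 and Mavs with them at 0.00983 to 0.652. The 8 genes were left out of the search for the genes most like each of them, although some pairs among the 8 correlated more highly. Among all other genes of at least 1 FPKM on average, those most like each of the 8 in muscle were Rnf213 (0.993) for Ddx58 and (0.985) for Ifih1, Parp12 (0.984) for Dhx58, Sp110 (0.991) for Zbp1, Phf11b (0.984) for Adar, Bst2 (0.977) for Eif2ak2, Cxcl9 (0.968) for Tlr3 and Pyurf (0.978) for Mavs. In C2C12 cells they were Parp9 (0.977) for Ddx58, Inpp1 (0.988) for Ifih1, Fgf7 (0.985) for Dhx58, Xaf1 (0.972) for Zbp1, Psmb8 (0.993) for Adar, Rab11fip2 (0.99) for Eif2ak2, Parp11 (0.985) for Tlr3 and Podxl (0.989) for Mavs.

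The gene models behind these values are those of GRCm38. Ddx58 spans chr4:40203773-40239828, Ifih1 chr2:62595798-62646255, Dhx58 chr11:100694884-100704271, Tlr3 chr8:45395665-45411080, Eif2ak2 chr17:78852564-78882573 and Zbp1 chr2:173206612-173218923, all on the minus strand. Mavs spans chr2:131234063-131248025 and Adar chr3:89715022-89753446, on the plus strand. Besides Adar, opposite-strand exons overlap Tlr3 (7.32% of its exon length), Dhx58 (4.31%) and Eif2ak2 (3.4% and 0.919%), so reads of those partners may be among theirs.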

How the data were processed

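The authors deposited FPKM values per gene, made with HISAT2 on GRCm38 (mm10 is also named in their processing notes), featureCounts and the fpkm function of DESeq2; the strand setting was not given in the sources used here. The 18 libraries with values were grouped by the labels, 2 per group, and 8 overexpression libraries were not analysed here. The methods speak in general of independent biological samples, but no source says for these pairs whether they were separate cultures or animals, so p-values may measure only the spread between these samples.

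A gene was tested if 2 or more libraries of its table reached 0.5 FPKM, which left 16753 genes in the injury table and 13824 in the C2C12 table. log2(FPKM + 0.1) was fitted with limma 3.58.1 in R 4.3.3 (lmFit, eBayes with trend), with all groups of a table in 1 fit, and p-values were adjusted by Benjamini-Hochberg over all genes tested, two-sided, with calls at 0.05. An exact permutation test of 2 against 2 libraries cannot go below p = 0.333 and was not used. Fold changes understate low genes. Reads per gene were recovered from the steps in low values with exon lengths of GENCODE (97.25% to 98.99% of values within 0.05 of a whole number), for depth only, and the floor was 3 reads per library. Such counts carry counting error only. Figures were drawn with Python 3.11.15 and matplotlib 3.10.9.

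The 8 genes and the lists were chosen with earlier results of these data known, and the changes from GM to DM3 of the 8, planned as tests, are given as a description because they share all libraries with that choice. Named genes were the 8 in full, up to 2 called genes per list, comparison and direction with the largest change and at least 1 FPKM on average in the higher group, a fixed set of partner genes regardless of their values (Ifnb1, Irf3, Irf7, Trim25, Ticam1, Ripk3, Mlkl, Adarb1, Prkra, Isg15, Mb21d1 and Tmem173), Mettl3 and Xist as checks, and the genes most alike in course; some genes that this rule names are not reported here. Rnaseh2a, Oas3 and Mx1 fall under the second part. The Y-linked genes Ddx3y and Eif2s3y were named besides, as checks beside Xist.

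In the C2C12 table, deviations of same-numbered libraries from their group means correlated at 0.278 to 0.68 in all 6 pairs of groups, so the numbers were taken to pair them, although no source says why and the replicate 2 libraries also share more ribosomal RNA. Alternatives were other pseudocounts (1 and 0.01), other filters, median-ratio scaling, quantile normalization, a fold threshold, a replicate block, only the groups compared, Xist status as a term or within 1 status, and each library left out. Another 2 that leave CTRL GM replicate 2 out of the shared fit were added after seeing the data. Simulated data with 200 genes changed by 2 log2 units were also fitted. The fit recovered 165 of them in the day 3 comparison (16753 genes) and 104 in the DM3 comparison (13824 genes). With a change of 1 log2 unit it recovered 63 and 0. In the measured day 3 comparison 48.8% of all genes were called, a far larger share than was changed in the simulation. Recovery was not split by expression level, so it is not given for low genes such as Ifih1, Tlr3 and Zbp1. These counts are therefore not recovery rates for the 8 genes.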

Additional observations from a re-analysis of the deposited data

How the results depend on the processing

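Of the fold changes of the 8 genes recomputed under the alternatives, 1118 counted as the same and 89 moved beyond the spread. A further 8 passed the threshold newly and 9, all in CTRL DM3 against GM, reversed. For the changes from GM to DM3 within a genotype, same meant an unchanged sign and side of the threshold, and only there were the 8 new passes counted. For all other comparisons it meant a move smaller than the gene's residual spread, whether or not its call changed. The changes of calls are given below. Signs of small differences also turned on day 1 (6 values), on day 10 against day 0 (19), in GM (4) and for Mavs in the difference between stages (6). In CTRL DM3 against GM, Ifih1 went from 0.26 to -0.12 under quantile normalization, -0.17 without CTRL GM replicate 2, -0.16 without CTRL DM3 replicate 1 and -0.12 with the block and without CTRL GM replicate 2. Eif2ak2 went to -0.027 without CTRL GM replicate 2, Adar to -0.25 without it and -0.21 with the block besides, and Zbp1 from -0.23 to 0.79 and 0.38. Leaving out 1 library in turn gave -0.17 to 0.69 for Ifih1, -0.027 to 1.06 for Eif2ak2, -0.25 to 0.75 for Adar and -1.25 to 0.79 for Zbp1. The cause was not tested. Low values, from 2 reads for Ifih1, limit the precision. Quantile normalization moved the median of all genes by -0.12 on day 3 against day 0.

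Calls among the 8 genes on day 1 (1) became 0 with a fold threshold of 2 log2 units, without a filter, with quantile normalization, with only the groups compared and with a Xist term, 2 with the replicate block, and 0 to 1 with 1 library left out. On day 3 (7) they became 2 with the fold threshold, 3 among Xist-expressing libraries and 4 to 6 with 1 library left out. On day 5 (6) they became 1, 3 without a filter, 0 with only the groups compared or a Xist term, and 0 to 5. From day 1 to day 3 (4) they became 1, 2 without a filter or with quantile normalization, 7 with the block, 0 with a Xist term or without Xist-expressing libraries, and 0 to 1. From day 3 to day 10 (6) they became 2, 0 among Xist-expressing libraries, and 2 to 6. At DM3, Cas9M3 against CTRL (2), they became 1 with a pseudocount of 0.01, 7 with only the groups compared, 5 without CTRL GM replicate 2, with or without the block, and 0 with any of the 4 DM3 libraries left out. From GM to DM3 they were 0 to 3 in CTRL with 1 library left out, and in Cas9M3 2 without CTRL GM replicate 2 and 3 with the block besides.

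Calls among listed genes on day 1 (8) became 0 with the fold threshold, without a filter, with only the groups compared or a Xist term, 4 with quantile normalization and 0 to 12 with 1 library left out. On day 3 (70) they became 20, 40 with a Xist term, 24 among Xist-expressing libraries and 35 to 58. On day 5 (35) they became 12, 21 without a filter, 7 with only the groups compared, 0 with a Xist term and 0 to 21. From day 1 to day 3 (42) they became 7, 24 without a filter, 20 with only the groups compared, 3 with a Xist term, 0 without Xist-expressing libraries and 3 to 27. From day 3 to day 10 (60) they became 15, 23 with a Xist term, 8 among Xist-expressing libraries and 20 to 54. At DM3 (9) they became 14 with a pseudocount of 1, 17 with the block, 43 with only the groups compared, 22 without CTRL GM replicate 2, 28 with the block besides, and 0 with any DM3 library left out. From GM to DM3 in CTRL (1) they became 2 with a pseudocount of 1, quantile normalization, the block, or the block without CTRL GM replicate 2, 0 with the fold threshold, a pseudocount of 0.01, no filter or only the groups compared, and 0 to 29; in Cas9M3 (0) they became 3 with a pseudocount of 1, 4 without CTRL GM replicate 2 and 7 with the block besides.

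In the injury table the replicate numbers did not pair the libraries (10 correlations of -0.0187 to 0.211, 2 above 0.1), and the block values above are given for completeness. In the C2C12 table, where they did, the block changed no call among the 8 genes other than Tlr3 at DM3.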
